A study of Homo sapiens with 2 samples.

Results

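Small RNAs that matched nuclear transfer RNA (tRNA) genes were examined in A549 cells, a human lung adenocarcinoma line of epithelial origin. The members were the 571 features of the count table that were typed as nuclear tRNA, out of 5475 small RNA features in all, and they were grouped by the amino acid and the anticodon in their names. The cells had been kept for 24 h in normoxia (20% O2) or in hypoxia (1.2% O2) before lysis, and total RNA of each condition gave 1 small RNA library, made by adapter ligation and PCR for the SOLiD sequencer without molecular identifiers. There was thus no replicate and no test of the condition: every interval below is an exact 95% binomial interval that covers counting error only, and it is too narrow wherever 1 read was counted at several copies of a gene.

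Transfer RNAs carry amino acids to the ribosome and read codons through the 3 bases of their anticodon. They fold into a cloverleaf with an acceptor stem, a D arm, an anticodon arm and a T arm, and the human genome holds many genes for most of them, often with identical sequence. Stressed cells cut mature tRNAs, among others with the nuclease angiogenin in the anticodon loop, into long and short fragments that small RNA libraries capture. The table gives 1 count per gene feature and no read position, so long fragments, short fragments and pieces of precursors cannot be told apart in these data.

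The following sequences come from the count table, whose coordinates are in the hg19 build. They are written 5′ to 3′ in the sense of the tRNA, without the 1 base of flanking sequence that the table carries on each side, and the anticodon stands in capitals. The strand of each gene is not given in the table. The first set comes from the most abundant groups and includes a pair of sequences each for Arg-CCG and Lys-CTT, whose ratios are compared further on.
chr17.tRNA23-ArgCCG (chr17:66016013-66016085): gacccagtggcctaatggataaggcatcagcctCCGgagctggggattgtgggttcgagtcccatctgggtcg
chr16.tRNA1-ArgCCG (chr16:3200675-3200747): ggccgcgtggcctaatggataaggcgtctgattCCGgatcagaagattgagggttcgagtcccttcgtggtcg
chr11.tRNA17-ValTAC (chr11:59318102-59318174): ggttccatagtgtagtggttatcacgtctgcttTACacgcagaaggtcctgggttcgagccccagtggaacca
chr15.tRNA2-LysCTT (chr15:79152904-79152976): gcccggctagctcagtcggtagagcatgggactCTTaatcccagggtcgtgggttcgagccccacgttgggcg
chr1.tRNA119-LysCTT (chr1:145395522-145395594): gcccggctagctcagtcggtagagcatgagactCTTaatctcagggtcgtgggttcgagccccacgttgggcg
chr1.tRNA41-GlyGCC (chr1:161435258-161435328): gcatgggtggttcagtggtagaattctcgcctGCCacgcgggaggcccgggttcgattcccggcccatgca
chr6.tRNA48-AspGTC (chr6:27471523-27471594): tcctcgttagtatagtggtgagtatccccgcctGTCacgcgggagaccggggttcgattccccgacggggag

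The second set shows the groups with the lowest ratios of hypoxia over normoxia. In the Tyr and Ile genes the stretch just after the anticodon holds an intron, which is spliced out of the mature tRNA.
chr14.tRNA5-TyrGTA (chr14:21151432-21151520): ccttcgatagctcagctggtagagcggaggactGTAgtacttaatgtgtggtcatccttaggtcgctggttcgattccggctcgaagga
chr19.tRNA10-IleTAT (chr19:39902808-39902900): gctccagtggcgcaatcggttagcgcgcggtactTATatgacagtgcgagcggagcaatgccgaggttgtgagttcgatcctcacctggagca
chr6.tRNA29-IleTAT (chr6:26988125-26988218): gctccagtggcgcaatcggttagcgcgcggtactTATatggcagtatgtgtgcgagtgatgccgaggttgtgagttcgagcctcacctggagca
chr19.tRNA2-GlyTCC (chr19:4724082-4724153): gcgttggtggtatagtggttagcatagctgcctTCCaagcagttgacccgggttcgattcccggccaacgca
chr13.tRNA1-PheGAA (chr13:95201904-95201976): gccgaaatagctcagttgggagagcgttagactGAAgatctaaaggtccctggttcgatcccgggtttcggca

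The third set shows the groups with high ratios, together with the elongator Met tRNA as the partner of the initiator, and an Asn sequence whose copies differed.
chr6.tRNA83-LeuTAA (chr6:144537684-144537766): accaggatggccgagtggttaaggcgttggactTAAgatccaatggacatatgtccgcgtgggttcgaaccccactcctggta
chr6.tRNA2-MetCAT (chr6:26286754-26286825): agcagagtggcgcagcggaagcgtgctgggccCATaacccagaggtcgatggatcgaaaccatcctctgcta
chr16.tRNA22-MetCAT (chr16:87417628-87417700): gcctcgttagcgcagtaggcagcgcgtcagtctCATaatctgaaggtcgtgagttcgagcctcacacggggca
chr1.tRNA26-AsnGTT (chr1:148248115-148248188): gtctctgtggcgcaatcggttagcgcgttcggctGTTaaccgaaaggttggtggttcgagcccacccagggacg

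The table held 6449337 counts in normoxia and 13115226 in hypoxia, 2.03 times as many. Of 4 epithelial miRNAs, miR-200b-3p had 3972 counts in normoxia and 9327 in hypoxia, miR-200a-3p 598 and 1186, miR-141-3p 168 and 219, and miR-200c-3p 109 and 213. Of 7 small RNAs that mark blood, liver, muscle or neural cells, miR-451a was the highest listed, with 82 and 191 counts. The hypoxia-induced miR-210 had 4307 and 22849 counts. Features typed as ribosomal RNA took 3.77% of all counts in normoxia and 6.55% in hypoxia, so that shares of the other classes are relative to a total whose make-up differed between the libraries.

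Nuclear tRNA features took 536147 counts in normoxia, 8.31% of the library (8.29 to 8.33), and 950972 counts in hypoxia, 7.25% (7.24 to 7.26). The log2 ratio of these shares, hypoxia over normoxia, was -0.20 (-0.202 to -0.192). A smaller amount of tRNA-derived RNA and a larger amount of other small RNA cannot be told apart in such shares. The 22 mitochondrial tRNA features, which are transcribed from the mitochondrial genome, moved from 3.20% to 3.34% of all counts. Without Tyr-GTA, left out because its own ratio was low, the log2 ratio of the class was -0.13 (-0.139 to -0.129). With rRNA features left out of the totals, the log2 ratio of the class was -0.16, without miR-21-5p it was -0.36, and with TMM over all features -0.31 and DESeq2 size factors -0.30.

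Single features were counted as higher or lower in hypoxia by a rule of size: the log2 ratio of CPM, counts scaled so that both libraries have the same total, had to reach 0.9 in either direction. This was applied to features with a mean log2 CPM above 3. Of the 571 members, 444 passed this filter on low values and 127 did not. Only 4 of the 444 were higher, or 0.901%, where 5.74% of the 1639 small RNA features of all types past the filter were higher. Lower members numbered 22, or 4.95%, beside 3.29% of all features. Of these, 12 were Tyr-GTA features, and without Tyr-GTA 10 of 431 members were lower (2.32%). With the class total set equal in both libraries, 13 members were higher and 12 lower, so the split between directions depends on the scale. On that scale the median log2 ratio was 0.11 for the members and 0.32 for all features, and the share of all features past the rule was not calculated. With CPM over all counts, the median log2 ratio of the members past the filter was -0.09, with quartiles of -0.34 and 0.21. That of all features was 0.13, with quartiles of -0.16 and 0.40. The members thus had a lower median than all features, and fewer of them were higher by the rule. Of the 94 higher features of all types, 45 were ribosomal RNA.

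Val tRNAs were the most abundant, at 17.9% of the class in normoxia and 19.4% in hypoxia. Lys followed with 14.2% and 13.1%, Gly with 13.8% and 12.5%, Arg with 9.90% and 10.2%, and Glu with 9.01% and 9.64%. Tyr stood apart, with 46322 counts or 8.64% of the class in normoxia and 43342 counts or 4.56% in hypoxia, although the hypoxia library was the deeper one. Asp had 6.37% and 7.22%. With each distinct sequence counted once, Val still led in both libraries (19.6% and 22.0%), followed by Arg (15.1% and 15.5%). In the next tier Cys had 3.70% and 3.62%, Leu 3.65% and 4.34%, and Met 1.89% and 2.85%. Ala (1.76% and 2.11%), Pro (1.68% and 1.66%) and Ser (1.52% and 2.05%) came next, followed by Asn with 6419 and 14393 counts.

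The least abundant standard amino acids were Gln (5009 and 11956 counts), Thr (4103 and 9122), Phe (3158 and 3938), Ile (1934 and 3605), His (1099 and 2628) and Trp (646 and 1075). As shares of all counts, 12 of the 20 standard amino acids were lower in hypoxia and 8 were higher, while within the class 7 were lower and 13 higher. The extremes were Tyr (log2 ratio of the share of all counts -1.12) and Phe (-0.71) on the low side and Met (0.40), Ser (0.24), Gln (0.23) and His (0.23) on the high side. Directions of groups near 0 depend on the scale: setting the class total equal added 0.20 to every log2 ratio, and TMM scaling over all features gave a shift of -0.11, so that Val (-0.08), Arg (-0.15), Glu (-0.10), Asp (-0.02) and Ile (-0.13) change sign under the former, and Leu (0.05) and Ala (0.07) under the latter.

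**Figure D1:**
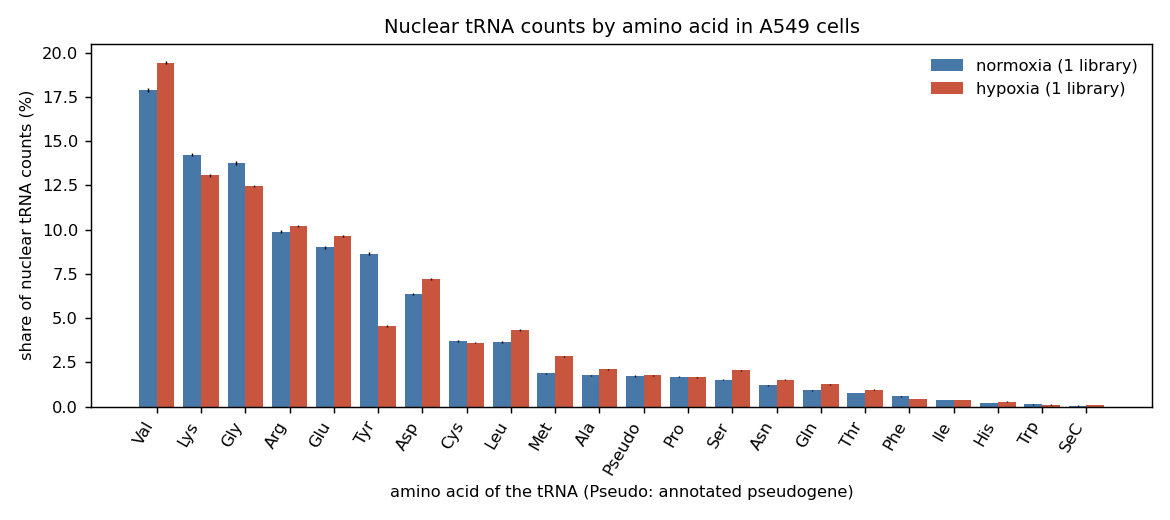
Share of nuclear tRNA counts by amino acid (percent, bars from 0) in the normoxia library (blue) and the hypoxia library (red), with exact 95% binomial intervals for counting error. Tyr moved from 8.64% to 4.56%, and Val led both libraries with 17.9% and 19.4%.

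Among 51 groups of amino acid and anticodon, with Met split into initiator and elongator and without pseudogenes and the suppressor, 49 passed the filter. Their summed counts kept much the same order in both libraries: 9 of the 10 most abundant groups were shared. The 10 most abundant of each library took 70.4% of the class in normoxia and 66.4% in hypoxia. Summed over all copies, Lys-CTT led in both, with 59187 counts in normoxia and 94035 in hypoxia. Gly-GCC had 54737 and 84150 counts, Tyr-GTA 46307 and 43332, Val-TAC 45886 and 90716, and Arg-CCG 38067 and 65022. They were followed by Asp-GTC (34141 and 68701), Glu-TTC (29224 and 51624), Val-CAC (28965 and 52859), Val-AAC (21182 and 41307), Cys-GCA (19832 and 34436) and Glu-CTC (19068 and 40021). In these sums Tyr-GTA was at rank 3 in normoxia and 8 in hypoxia. The order rests on how many identical copies are summed. With each distinct sequence counted once, at the mean of its copies, Tyr-GTA was first in normoxia (14.0% of the class) and at rank 4 in hypoxia (7.68%). Val-TAC was then at rank 3 and 1, Arg-CCG at rank 2 in both, and Lys-CTT at rank 4 and 3. This setting merges only features that are identical over the whole gene, introns included. The 14 Tyr-GTA features were all distinct in this sense, so Tyr-GTA kept its 46307 counts in normoxia, while Lys-CTT fell to 29639. The first rank of Tyr-GTA therefore rests on this uneven merging.

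Of the 49 groups, 24 had a higher share of all counts in hypoxia and 25 a lower one, and the interval for counting error lay above 0 for 18 and below 0 for 21. Within the class, 34 were higher and 15 lower. None was higher by the rule of size and 2 were lower, Ile-TAT and Tyr-GTA. Leu-TAA passed it as well when scaled to the class (1.01), and Gly-TCC with TMM over all features (-0.91). Ile-TAT had the lowest ratio, with 664 counts in normoxia and 449 in hypoxia (log2 ratio -1.59, -1.76 to -1.41), followed by Tyr-GTA at -1.12 (-1.14 to -1.10), Gly-TCC at -0.80 (4412 and 5169 counts), Phe-GAA at -0.71 (3158 and 3938) and Gly-GCC at -0.40. At the other end stood Leu-TAA, with 1734 and 6189 counts (0.81, 0.73 to 0.89), initiator Met (0.57, 0.53 to 0.61), Ile-GAT with 0.0354% and 0.0577% of the class (0.51), SeC-TCA with 66 and 188 (0.49, 0.07 to 0.91) and Ser-CGA with 1247 and 3391 (0.42). The 3 Ile-GAT features share 1 sequence and had 63 to 64 counts each in normoxia and 183 each in hypoxia, so they cannot be read as 3 measurements.

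**Figure D2:**
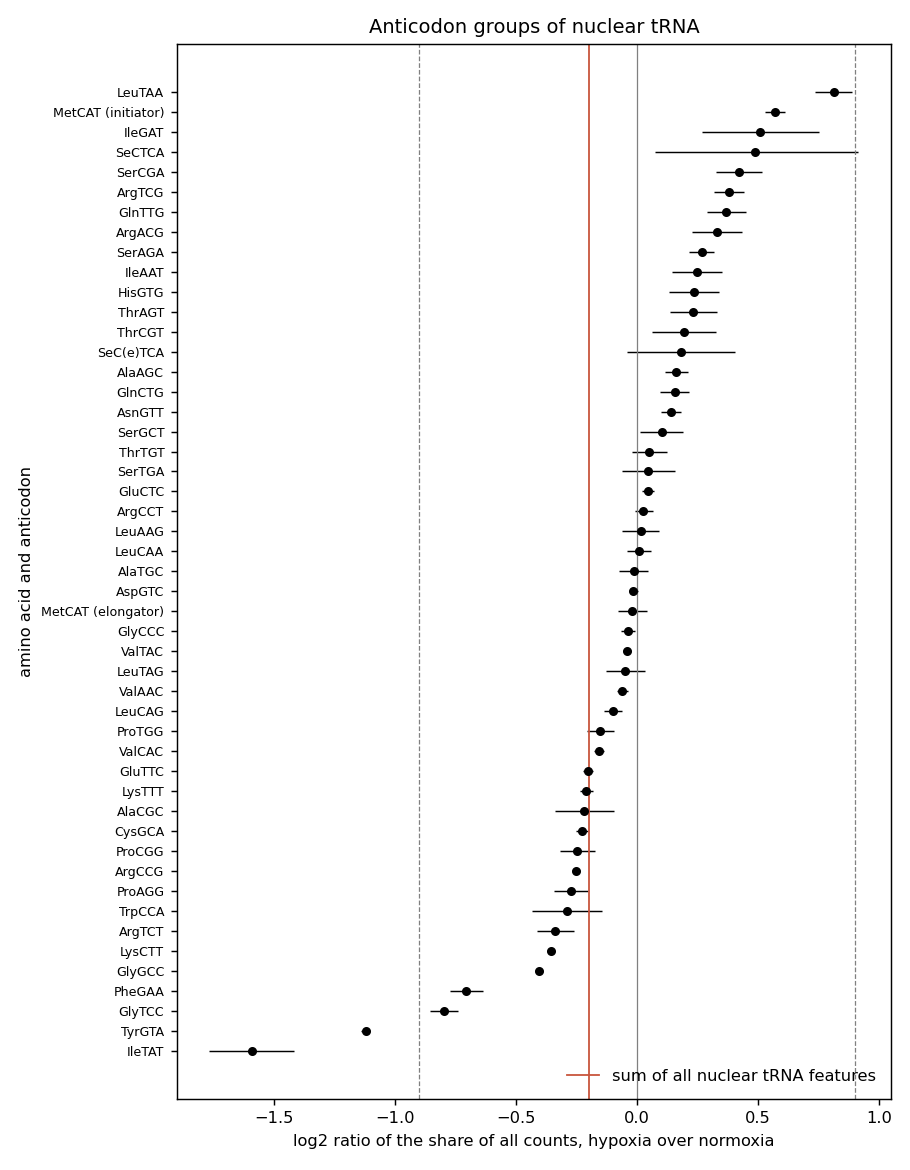
Log2 ratio of the share of all counts, hypoxia over normoxia, for the 49 anticodon groups past the filter, with exact conditional 95% intervals for counting error; the dashed lines mark the rule of size at 0.9 and the red line the whole class (-0.20). Ile-TAT (-1.59) and Tyr-GTA (-1.12) lie beyond the lower line, and Leu-TAA (0.81) lies nearest to the upper one.

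Tyr-GTA reads both Tyr codons and carries the base queuosine in its anticodon. Of its 14 features, 13 passed the filter and 12 were lower in hypoxia, where 3.29% of all features past the filter were lower. In these 12, counts ran from 3090 to 5272 in normoxia and from 2822 to 4815 in hypoxia, and the log2 ratios from -1.30 to -0.98. On the CPM scale, which sets both libraries to the same total, these 12, picked by the rule, ran from 479 to 817 in normoxia and from 215 to 367 in hypoxia. For chr6.tRNA15-TyrGTA, at the low end, 3855 counts in normoxia and 3182 in hypoxia were recorded. The remaining pair was sparse: chr7.tRNA9-TyrGTA, the 1 copy of 73 bases, had 87 and 150 counts (-0.23, interval -0.63 to 0.16), and chr8.tRNA12-TyrGTA had 14 and 15.

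These 12 features are not 12 measurements. All were distinct as genes, but over their 66 pairs the first 37 bases had a median identity of 97.3% and the last 36 bases 97.2%, while the 16 to 21 bases between them, from base 38 on, had a median identity of 44.4%. That middle stretch matches the place of the intron, and the last part began with ATCC in all 12. The gene that a count came from cannot be told from the table. The sources used here do not say how a read that matched several places was counted.

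Introns are known for some genes of 4 anticodons, Tyr-GTA, Ile-TAT, Arg-TCT and Leu-CAA, and these 4 did not move together. Of their 32 features, 28 passed the filter, of which 14 were lower and none was higher, beside 3.29% and 5.74% of all features. The median log2 ratio was -0.92 beside 0.13, but the 14 were all Tyr-GTA or Ile-TAT. The Ile-TAT genes, of 93 to 94 bases, spread widely. chr19.tRNA10-IleTAT had 320 counts in normoxia and 138 in hypoxia (log2 ratio -2.22, interval -2.54 to -1.95), and chr2.tRNA5-IleTAT had 158 and 69 (-2.18, -2.65 to -1.80), the largest differences among all members past the filter. chr6.tRNA29-IleTAT, printed beside it above, had 80 and 136 (-0.25, -0.67 to 0.16).

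The 5 Arg-TCT genes of 85 to 91 bases had 2213 counts in normoxia and 3529 in hypoxia (-0.35), and single genes ran from -0.86 to 0.23. The 5 Leu-CAA genes of 105 to 108 bases had 4454 and 9115 counts, a log2 ratio of 0.01 (-0.04 to 0.06). Single Leu-CAA genes of this length ran from -0.20 to 0.18. Genes on both sides of 0 were thus found in Leu-CAA and Arg-TCT, while all Tyr-GTA and Ile-TAT genes lay below 0. The sign of the summed Leu-CAA value changes under TMM scaling over all features.

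Gly-TCC and Phe-GAA came next. All 9 Gly-TCC features were below 0, between -0.89 and -0.68, and none passed the rule of size. Of the 9, 6 share 1 sequence, so they are not 9 measurements. chr19.tRNA2-GlyTCC had 1116 and 1283 counts (-0.82) and chr1.tRNA82-GlyTCC, the nearest to the threshold, 238 and 260 (-0.89). Phe-GAA had 12 features, all below 0, of which 11 passed the filter and 1 passed the rule, beside 3.29% of all features: chr6.tRNA106-PheGAA, with 577 and 622 counts (-0.91). Its other features past the filter lay between -0.85 and -0.44. Of the 12 Phe-GAA features, 6 share 1 sequence.

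The 4 higher features belonged to 4 families. chr8.tRNA6-AlaAGC had 90 counts in normoxia and 439 in hypoxia (log2 ratio 1.25), while chr2.tRNA3-AlaAGC, of identical sequence, had 179 and 587 (0.69) and did not pass. The others were chr6.tRNA73-ArgCCG with 522 and 2470 counts (1.22), chr6.tRNA83-LeuTAA with 1195 and 4846 (0.99), and chr6.tRNA35-SerCGA with 58 and 232 (0.96). The first and the last rest on 90 and 58 counts in normoxia. Intervals for counting error ran from 0.56 to 1.42 for chr6.tRNA35-SerCGA against 0.90 to 1.09 for chr6.tRNA83-LeuTAA. Just below the rule were chr6.tRNA134-LeuTAA (74 and 280 counts, 0.88) and chr11.tRNA4-LeuTAA (22.3 and 40.8 CPM, 0.86). The Leu-TAA group, which reads a Leu codon ending in A, was thus high at its 3 features of 83 bases that passed the filter. Their length has room for the long variable arm known for Leu tRNAs. The Leu-TAA pair of 75 bases, chr4.tRNA2-LeuTAA (112 and 170 counts, -0.42) and chrX.tRNA2-LeuTAA (200 and 341, -0.25), was 92.0% and 89.3% identical to a mitochondrial tRNA and lay below 0.

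Besides Tyr-GTA, Ile-TAT and Phe-GAA, the lower features were 5 annotated pseudogenes, of 25 past the filter, and 2 Glu copies, where 3.29% of all features were lower. chr2.tRNA18-PseudoCTC had 141 and 116 counts (-1.29), and chr1.tRNA100-PseudoGAA (234 and 207) and chr1.tRNA92-PseudoGAA (234 and 208) lay at -1.19 and -1.18. The sequences of the PseudoGAA pair differ, but with counts this close they may not be separate measurements. chr3.tRNA10-PseudoCTC (-1.02), chr1.tRNA49-GluTTC (-0.99), chr2.tRNA1-PseudoCCC (-0.93) and chr13.tRNA4-GluCTC (-0.90) followed, the last just inside the rule. The 74 pseudogene features together took 9265 counts in normoxia and 16761 in hypoxia, 1.73% and 1.76% of the class. Of these, 25 passed the filter, with a median log2 ratio of -0.09, and 3 had no determined anticodon (1756 and 3384 counts).

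**Figure D3:**
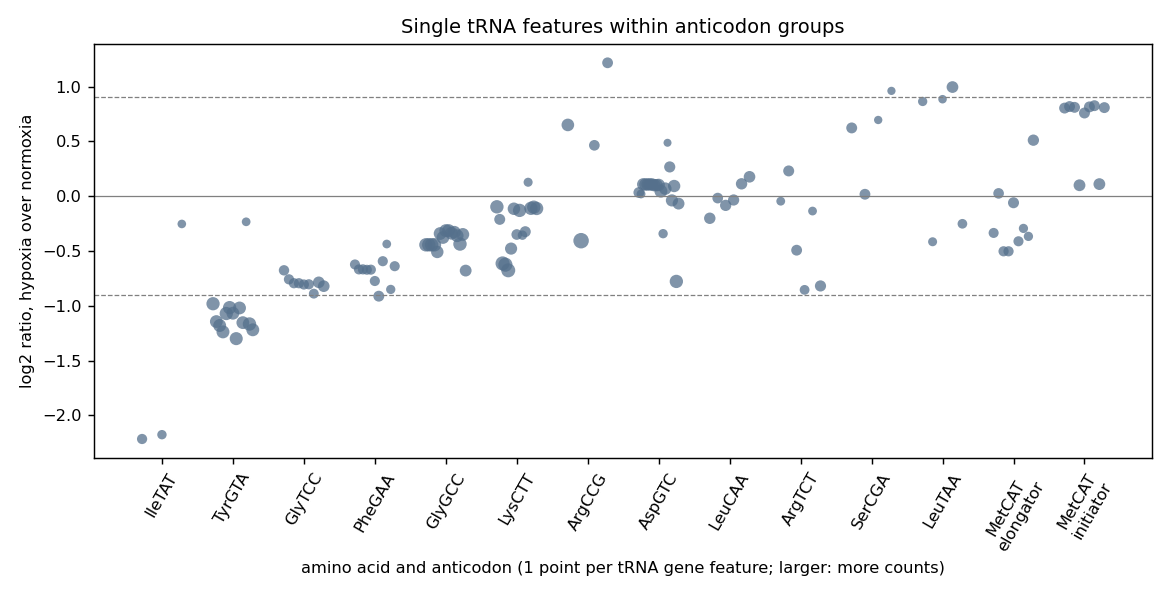
Log2 ratio of CPM, hypoxia over normoxia, for single tRNA gene features past the filter in selected anticodon groups, with 1 point per feature and larger points for more counts; dashed lines mark the rule of size at 0.9. The 12 long Tyr-GTA features lie between -1.30 and -0.98, while the copies of initiator Met, Asp-GTC and Arg-CCG fall apart into separate levels.

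Initiator Met tRNA, which starts translation, and elongator Met tRNA, which reads internal Met codons, share the anticodon CAT but differ in sequence. The initiator took 1.25% of the class in normoxia and 2.12% in hypoxia (6688 and 20192 counts), with a median log2 ratio of 0.81 over its 9 features past the filter, all above 0 and none past the rule of size. The elongator took 0.640% and 0.724% (3434 and 6889 counts), with a log2 ratio of the shares of -0.02 (-0.08 to 0.04), a median of -0.34 over 9 features, 7 of them below 0, and a single high copy, chr8.tRNA10-MetCAT (834 and 2417 counts, 0.51). That 1 copy held more counts than any other elongator copy, and the median of the group lies further below 0 than its sum.

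Of the 8 initiator copies with identical sequence, 6 had 574 to 605 counts in normoxia and 2070 to 2092 in hypoxia, at log2 ratios of 0.76 to 0.83. The other 2, chr6.tRNA2-MetCAT (1266 and 2778 counts) and chr6.tRNA142-MetCAT (1283 and 2795), had log2 ratios of 0.11 and 0.10. Their mean lay above that of the 6 by 689 counts in normoxia and by 704.5 in hypoxia. These counts are not scaled for depth, and the hypoxia library was 2.03 times as deep, so the excess was a smaller share of it. The same mature sequence therefore gave a log2 ratio near 0.8 or near 0.1 depending on the copy, and the group value of 0.57 lies between them.

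Copies with the same sequence were common. The 571 features held 406 distinct sequences, and 225 of them fell into 60 sets of identical copies. In the 38 sets whose highest copy had at least 200 counts, 11 agreed within 1.1-fold in normoxia and 13 spread over more than 2-fold, as did 10 in hypoxia. The 5 identical Gly-GCC copies printed above by chr1.tRNA41-GlyGCC had 5320 to 5337 counts in normoxia and 7975 to 7990 in hypoxia. Copies that agree this closely cannot be read as separate measurements. With each distinct sequence counted once, at the mean of its copies, the class took 330156 counts in normoxia (5.12% of all counts) and 564240 in hypoxia (4.30%), an alternative chosen after seeing the data.

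Other sets held copies at separate levels. Of 11 identical Asp-GTC copies, 10 had 2068 to 2266 counts in normoxia and 4506 to 4832 in hypoxia, whereas chr6.tRNA48-AspGTC had 4844 and 5743 and the only negative log2 ratio of the set (-0.78, beside 0.07 to 0.11). Of 7 identical Glu-CTC copies, 4 had 764 to 794 counts in normoxia and 1422 to 1514 in hypoxia, and 3 had 3636 to 3749 and 7934 to 8095. For the Asn-GTT sequence printed above, 3 copies had 140 to 184 and 203 to 289 counts (-0.51 to -0.37), and 3 had 1136 to 1430 and 2877 to 3685 (0.31 to 0.34). The mature sequence was the same in each set, and the flanking sequence beyond 1 base was not analysed here.

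**Figure D4:**
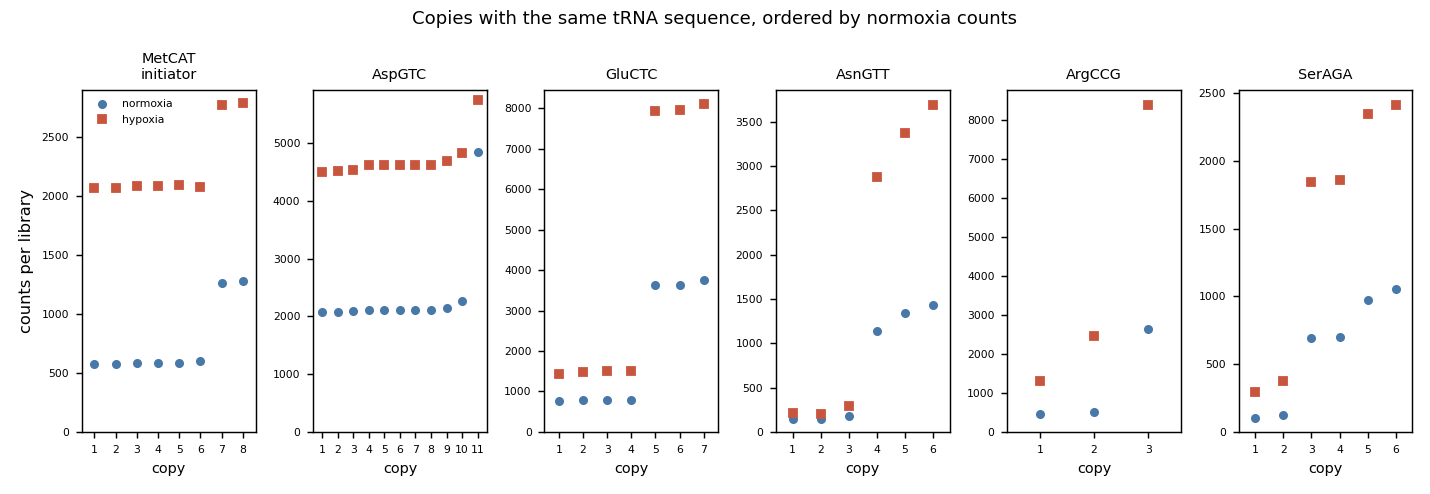
Counts per library (not scaled for depth) of tRNA gene copies with the same sequence in 6 anticodon groups, ordered by their normoxia counts, with blue circles for normoxia and red squares for hypoxia. Initiator Met splits into 6 copies at 574 to 605 normoxia counts and 2 at 1266 to 1283, and the highest Asp-GTC copy has 4844 and 5743 counts where the other 10 have 2068 to 2266 in normoxia and 4506 to 4832 in hypoxia.

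Different sequences of 1 anticodon also had unlike ratios in some of the most abundant groups. The highest feature of the class was chr17.tRNA23-ArgCCG, with 34444 counts in normoxia and 52839 in hypoxia, 6.42% and 5.56% of the class (log2 ratio -0.41). The other 3 Arg-CCG features share 1 sequence that differs from it by 15 substitutions, among them A2G, A6C and G39T, counted from 1 at the 5′ end of the tRNA. They had 470 and 1319 counts (chr6.tRNA114-ArgCCG), 522 and 2470 (chr6.tRNA73-ArgCCG), and 2631 and 8394 (chr16.tRNA1-ArgCCG), at log2 ratios of 0.46 to 1.22. The value of the Arg-CCG group, -0.25, lies between those of its 2 sequences.

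In Lys-CTT, chr15.tRNA2-LysCTT and its identical copy chr14.tRNA13-LysCTT had 9880 and 9631 counts in normoxia and 13022 and 12797 in hypoxia, log2 ratios of -0.63 and -0.61. The 5 copies of the sequence of chr1.tRNA119-LysCTT, which differs by G29A and C41T, had 4826 to 5191 and 9024 to 9867 counts, at -0.13 to -0.10. Bases 29 and 41 pair with each other in the anticodon stem, so both sequences keep the pair. Another abundant copy, chr16.tRNA10-LysCTT, had 8821 and 11218 counts (-0.68). In Val-TAC, chrX.tRNA4-ValTAC (12486 and 25583 counts) and chr11.tRNA17-ValTAC (12277 and 25551) were at 0.01 and 0.03, chr11.tRNA16-ValTAC (7689 and 15617) at 0.00, chr10.tRNA6-ValTAC (11496 and 20598) at -0.18, and chr6.tRNA40-ValTAC (1938 and 3367) at -0.23. The identical Glu-TTC copies chr13.tRNA3-GluTTC (9460 and 16715) and chr15.tRNA11-GluTTC (9348 and 16609) lay at -0.20 and -0.19.

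Known groups of tRNAs were described by lists that were chosen with earlier results of these data known. Sources of fragments cut in the anticodon loop under stress (Gly-GCC, Gly-CCC, Glu-CTC, Lys-CTT, Val-CAC, Val-AAC, His-GTG and Asp-GTC) held 109 features and took 43.5% of the class in normoxia and 43.4% in hypoxia. Of the 100 past the filter, 1 was lower (chr13.tRNA4-GluCTC) and none was higher, beside 3.29% and 5.74% of all features, with a median log2 ratio of -0.13 beside 0.13. Sources of fragments described in hypoxic breast cancer cells, which bind the RNA-binding protein YBX1 (all Glu and Gly, Asp-GTC and Tyr-GTA), took 37.8% and 33.9%. Of their 85 features past the filter, 14 were lower, 12 of them Tyr-GTA and 2 Glu, and none was higher, beside 3.29% lower and 5.74% higher among all features, and the median was -0.31 beside 0.13. Ala and Cys tRNAs, whose 5′ fragments start with a run of G and are known to repress translation, took 5.46% and 5.73%, with 1 of 54 higher (chr8.tRNA6-AlaAGC) and none lower, beside 5.74% and 3.29% of all features, and a median of -0.19 beside 0.13.

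Queuosine tRNAs (Asp-GTC, Asn-GTT, His-GTG and Tyr-GTA), in which a modified G sits at the first anticodon base, did not move as a group. Tyr-GTA held all 12 lower features of the 56 past the filter, where 3.29% of all features were lower, and the median over the 56 was 0.06 beside 0.13. His-GTG had a log2 ratio of 0.23, with all 11 features above 0. These 11 held only 3 distinct sequences, and 9 of them were copies of 1 sequence, so they are not 11 measurements. Asn-GTT (6417 and 14386 counts) had a log2 ratio of 0.14, and of -0.00183 with identical sequences counted once. Of its 32 features 18 lay below 0, and the median over its 14 past the filter was -0.27. Asp-GTC was at -0.02 (-0.03 to 0.00), with 15 of its 19 features above 0, though 11 of the 19 share 1 sequence. Inosine tRNAs, in which the first anticodon base A is deaminated, had a median of 0.16 over 77 features past the filter, close to the 0.13 of all features. The same Ala copy was higher and none was lower, beside 5.74% and 3.29% of all features. They included Ala-AGC (0.16), Arg-ACG (0.33), Ile-AAT (0.25), Ser-AGA (0.27) and Thr-AGT (0.23), beside Pro-AGG (-0.27), Val-AAC (-0.06) and Leu-AAG (0.01). In Ala-AGC, chr6.tRNA65-AlaAGC held 2326 of 5076 counts in normoxia and 6316 of 11555 in hypoxia (0.42), and the median over its 11 features past the filter was -0.16, of the opposite sign.

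Taken by name, the Leu, Ser and SeC tRNAs, known for a long variable arm, also had a median of 0.16 over 61 features. The list includes the Leu-TAA pair that resembles a mitochondrial tRNA. Of the 61 features, 2 were higher and none was lower, again beside 5.74% and 3.29% of all features and a median of 0.13. Ser-GCT (0.10), Ser-TGA (0.05), Leu-CAG (-0.10) and Leu-TAG (-0.05) stayed between -0.10 and 0.10. SeC tRNA inserts selenocysteine at UGA codons of selenoprotein mRNAs, and its features were sparse: chr19.tRNA8-SeC(e)TCA had 235 and 540 counts (0.18, -0.05 to 0.40) and chr17.tRNA25-SeCTCA 66 and 188. The 1 suppressor tRNA, which reads a stop codon, had 30 and 62 counts and did not pass the filter. The intervals of the SeC features are wide, and the lower bound of SeC-TCA, 0.07, is smaller than the shift that TMM scaling over all features gave.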

How the data were processed

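The deposited table holds, for each small RNA feature, the raw counts of the 2 libraries as the authors made them, without normalization. The submitters' processing notes name the hg19 build, and the study's methods name LifeScope version 2.5.1 and miRBase version 18 for small RNA data of the SOLiD platform without naming this experiment. The sources used here do not say how reads that match several tRNA genes were counted.

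Groups followed the labels, with 1 library per condition. The sequence of every tRNA feature was 2 bases longer than its interval. With 1 base removed at each end, 519 of 571 sequences had at least 6 of 7 acceptor stem pairs, against 482 with both kept. Starts are printed counted from 1. Shares of all counts and of the class were given exact Clopper-Pearson intervals, and ratios of shares exact conditional binomial intervals, at 95%, with Python version 3.11.15 and scipy version 1.17.1. The log2 ratios of single features used CPM over all counts with a prior count of 2. A zero count allows up to 3 counts. The rule of size took the thresholds of the study's RNA sequencing. Initiator Met was recognised from its sequence, and identity to mitochondrial tRNAs was called from 80%. Alternatives used edgeR version 4.0.16 and DESeq2 version 1.42.0 in R version 4.3.3 for scaling factors only. The calculation was tested on simulated data.

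The members and lists were chosen with earlier results of these data known. Named were all amino acids, the 10 most abundant anticodons and features of either library, and the lists. The 5 largest and 5 smallest ratios whose interval excludes equal shares were also named, for anticodons and for features. For features this was limited to those past the rule of size, of which only 4 were higher. Further features were named after their values were seen: those nearest to the threshold, the remaining features past the rule, and copies of a named sequence or anticodon group.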

Additional observations from a re-analysis of the deposited data

How the results depend on the processing

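No paired analysis was possible because there was only 1 library in each condition, and for the same reason no replicate could be left out. The tRNA share of normoxia and of hypoxia was 11.9% and 11.1% relative to mature miRNA counts, 8.64% and 7.76% without rRNA features, 16.8% and 13.1% without miR-21-5p, and 8.07% and 7.03% with features of 1 anticodon that had the same pair of counts taken once. With identical sequences counted once it was 5.12% and 4.30%, and with only the highest copy of each anticodon 2.16% and 1.85%, both chosen after seeing the data. The log2 ratio of the class was negative under all 8 alternatives: -0.31 with TMM over all features, -0.22 with TMM over mature miRNAs, -0.30 with DESeq2 size factors, -0.16 without rRNA, -0.36 without miR-21-5p, -0.20 with equal pairs taken once, -0.25 with identical sequences once and -0.22 with the highest copies.

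The 4 higher features became 13 when scaled to the class, 2 with TMM over all features, 2 with DESeq2, 2 at a log2 threshold of 1 and 17 without the filter on low counts, and were 3 to 5 otherwise. The 22 lower features became 12 when scaled to the class and 36 without the filter, and were 17 to 32 otherwise. The share of all features past the rule was calculated for the main setting only, so these other counts stand without a background. Higher features were 15.4% of those past the rule, 52.0% when scaled to the class and 32.1% without the filter. The median log2 ratio of all features shifted by -0.11 with TMM over all features, by -0.10 with DESeq2 and by 0.20 when scaled to the class. Of 49 anticodon groups, 42 kept their sign with TMM over all features, 43 with DESeq2, 39 when scaled to the class and 46 with identical sequences once. Of the 39 groups whose interval excluded 0, 33 to 39 kept it. The rarest groups had few counts in the normoxia library, and the effect of depth on their ratios was not tested.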

Other observations

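Some nuclear members resembled mitochondrial tRNAs. Of the 571, 14 were at least 80% identical to a listed mitochondrial tRNA, the highest at 93.3%, and together they had 482 counts in normoxia and 768 in hypoxia, 0.0899% and 0.0808% of the class. The 22 mitochondrial features themselves had 206566 and 438503 counts, with a median log2 ratio of -0.21 over single features although their sum gave 0.06. A further 43 features typed only as tRNA had 1205 and 2744 counts.

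By chromosome, the 131 features of chromosome 1 took 20.1% of the class in normoxia and 20.6% in hypoxia, and the 172 features of chromosome 6 had 96650 and 184248 counts. Chromosome 17, with 38 features, took 11.7% and 11.4%. The 22 features of chromosome 14, which hold 5 of the 12 lower Tyr-GTA copies, took 6.39% and 4.31% (log2 ratio -0.77). Across the 49 anticodon groups past the filter, the log10 counts of both libraries had a Pearson r of 0.983. Across all 51 groups, the number of gene features had a Spearman rho of 0.612 with normoxia counts. Both are descriptions across groups of the same libraries, in which 1 read may count in several features.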
